A study of Mus musculus with 24 samples.

Results

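The genes described here are 44 listed genes of fatty acid oxidation and of the PPAR receptors that control it, found by symbol among the 20351 genes of the count table. All 44 were found, and 41 of them passed a filter on low counts that 14411 genes of the table passed. Ucp3, Angptl4 and Acot1 did not pass. They were measured by poly(A) RNA sequencing in HL-1 cells, a line derived from mouse atrial cardiomyocytes, in 24 libraries that form 4 groups of 6. All cells had been transduced with an adenovirus at 30 infectious units per cell, carrying a short hairpin RNA (shRNA), and kept in serum-free medium. The first group was MuRF1 knockdown cells (Adsh_MuRF1) under cyclic stretch of 15% at 1 Hz for 60 min, beginning 48 h after transduction, and the second was control cells with a scrambled hairpin (Adsh_scrambled) under the same stretch. The third was knockdown cells without stretch, and the fourth control cells without stretch. MuRF1 is a ubiquitin ligase of striated muscle encoded by Trim63, and the series title asks for its part in the transcriptional response to stretch. The model rests on 1 cell line, and the labels name a hairpin virus against MuRF1 without saying how many hairpin sequences it holds. Whether the stretch was uniaxial or biaxial differs between 2 of the labels' fields. The labels do not say that replicates were separate cultures, so the p-values measure the spread between these libraries, which may be technical. Within a group all library codes carry 1 shared number, which no other group has. If that number marks a batch, batch and group cannot be told apart. The codes also carry a letter, a for replicates 1 to 3 and b for replicates 4 to 6 of every group.

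Long-chain fatty acids enter muscle cells through carriers such as CD36, are bound by fatty acid binding proteins and are activated to acyl-CoA. The carnitine shuttle carries them into mitochondria, where dehydrogenases, hydratases and thiolases shorten them in cycles, and this is the main fuel supply of the adult heart. PPAR receptors are bound by fatty acids and pair with RXR, and with the coactivators of the PGC-1 family and the receptor ERRα (Esrra) they are known to drive most genes of this pathway. MuRF1 is known to ubiquitinate PPARα in heart cells.

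Libraries held 23564268 to 54755203 estimated counts. Trim63, the gene the hairpin targets, averaged 68.5 ± 7.91 CPM (counts per 1000000 counts of the scaled library) over the stretched knockdown libraries and 781 ± 81.7 CPM over the stretched control libraries (n = 6 each, SD). Without stretch it averaged 55.7 ± 1.17 CPM over knockdown and 639.7 ± 68.1 CPM over control libraries (n = 6 each, SD). Stretched control replicate 5 was the shallowest library and stood apart on the second principal component, at 54.7 against -14.9 to 13.2 in the other libraries. Counts of members called that rest on it are given with and without it. Of 11 markers of atrial cardiomyocytes, Tnnt2, Ryr2 and Myl7 were abundant, whereas Nppa and Sln, which define atrial cells, were under 1 CPM in every group.

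The levels of the 44 genes per transcript length spanned a wide range in non-stretched control cells, as the plot of levels per length shows. Fabp3, the heart fatty acid binding protein, stood first at 323 ± 14.9 CPM per kb of its longest coding transcript (SD, n = 6). Acadl, the long-chain acyl-CoA dehydrogenase, followed at 109 ± 1.21 CPM per kb, and Etfa, a subunit of the electron transfer flavoprotein, at 107 ± 4.45 CPM per kb, a difference smaller than the SD of Etfa (n = 6 each, SD). Both genes of the outer carnitine palmitoyltransferase were present at unequal levels. Cpt1a, the form typical of liver, stood at 51.2 ± 1.46 CPM per kb and Cpt1b, the form typical of muscle, at 1.80 ± 0.186 CPM per kb (n = 6 each, SD). Among the 3 PPAR receptors, Ppard led at 14.8 ± 0.679 CPM per kb, Ppara stood at 1.15 ± 0.0567 CPM per kb and Pparg at 0.127 ± 0.0327 CPM per kb (n = 6 each, SD). Ucp3, Acot1 and Angptl4, which is an inhibitor of lipoprotein lipase and a well-known PPAR target, took the last places. Angptl4 had at most 15 estimated counts in any library.

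**Figure D1:**
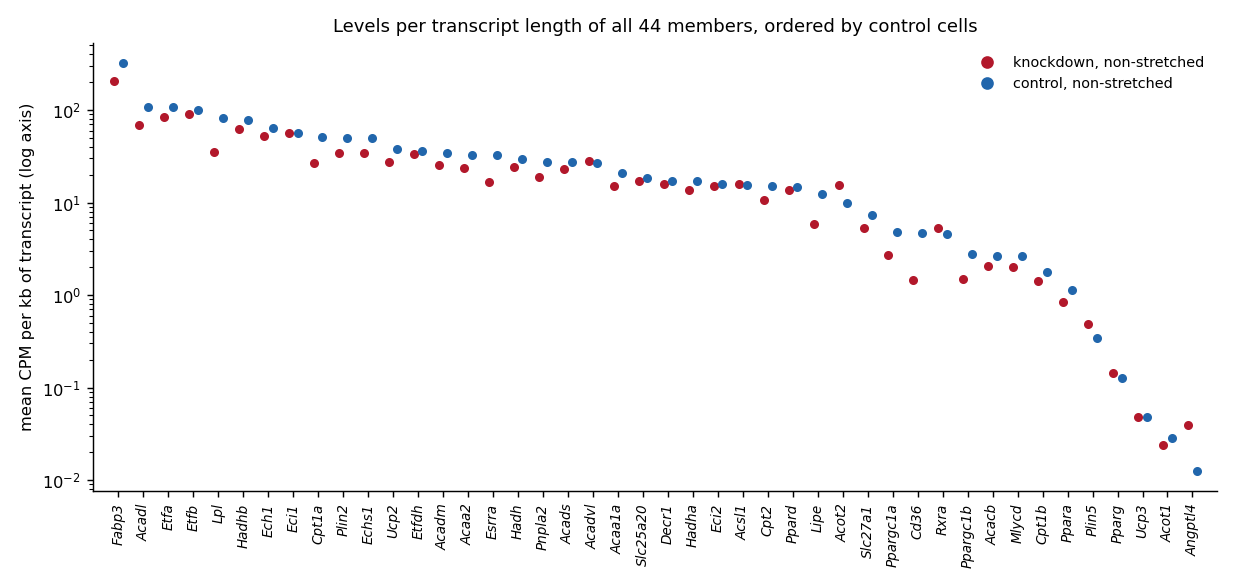
Mean level of each of the 44 genes in CPM per kb of its longest coding transcript, on a log axis, in non-stretched knockdown and non-stretched control cells (n = 6 each), ordered by the control level. Fabp3 stood first in both groups, and Ucp3, Acot1 and Angptl4 stood last in control cells.

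Promoter sequence from RefSeq on GRCm38.p6, from 250 bases before to 50 bases after a start site, was at hand for 38 of the 44 genes, in 46 windows. The sequence AGGTCA on either strand, the half-site that nuclear receptors such as PPAR, RXR and ERRα bind, occurred in 13 of the 46 windows (28.3%), against 16.3% of all 32851 windows. The 13 windows belong to 11 genes, among them Cpt1a, Cd36, Acadm and Rxra. The longer AAGGTCA, which contains AGGTCA, occurred in 3 windows (6.52%, against 4.72% of all). TCAAGGTCA, which contains both, is the ERRα element and was in 0.423% of all windows, and AGGTCANAGGTCA, the layout bound by PPAR with RXR, in 0.0396% of all. Neither of these occurred in the 46 windows, which says only that these letters are not in them. A match is a description and not evidence of binding.

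The windows of 5 genes are given here in lower case, with each AGGTCA, or its complement TGACCT, in capitals. The Hadhb window on chr5:30155003-30155302 (plus strand) is shown because Hadha is transcribed away from it on the opposite strand, with RefSeq start sites 273 bases apart. The windows of Cpt1a on chr19:3323051-3323350 (plus strand), Cd36 on chr5:17835847-17836146 (minus strand) and Acadm on chr3:153944594-153944893 (minus strand) are shown because these genes fell and hold the half-site. The second window of Rxra, on chr2:27709042-27709341 (plus strand), is shown because Rxra rose and this window holds 2 half-sites.
Hadhb: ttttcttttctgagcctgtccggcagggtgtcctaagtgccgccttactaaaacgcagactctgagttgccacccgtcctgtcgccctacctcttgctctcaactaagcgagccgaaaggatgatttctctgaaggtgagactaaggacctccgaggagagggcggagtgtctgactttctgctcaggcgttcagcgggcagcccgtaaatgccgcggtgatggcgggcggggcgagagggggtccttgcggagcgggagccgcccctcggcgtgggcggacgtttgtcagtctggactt
Cpt1a: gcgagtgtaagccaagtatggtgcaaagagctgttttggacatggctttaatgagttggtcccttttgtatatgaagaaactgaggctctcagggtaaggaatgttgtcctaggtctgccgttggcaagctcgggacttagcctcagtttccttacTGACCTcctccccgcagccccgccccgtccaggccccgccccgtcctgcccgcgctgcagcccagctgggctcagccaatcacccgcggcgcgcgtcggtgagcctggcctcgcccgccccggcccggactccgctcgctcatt
Cd36: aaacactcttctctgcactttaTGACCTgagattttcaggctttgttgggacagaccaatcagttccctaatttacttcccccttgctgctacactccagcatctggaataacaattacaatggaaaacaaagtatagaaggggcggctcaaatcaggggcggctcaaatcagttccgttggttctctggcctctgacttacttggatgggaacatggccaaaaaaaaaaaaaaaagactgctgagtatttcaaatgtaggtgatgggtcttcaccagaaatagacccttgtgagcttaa
Acadm: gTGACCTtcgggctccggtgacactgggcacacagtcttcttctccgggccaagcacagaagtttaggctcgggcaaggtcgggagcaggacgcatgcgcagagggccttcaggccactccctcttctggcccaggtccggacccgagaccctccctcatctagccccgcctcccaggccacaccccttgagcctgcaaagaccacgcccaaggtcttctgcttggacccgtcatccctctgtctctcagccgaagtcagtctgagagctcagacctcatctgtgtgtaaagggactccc
Rxra: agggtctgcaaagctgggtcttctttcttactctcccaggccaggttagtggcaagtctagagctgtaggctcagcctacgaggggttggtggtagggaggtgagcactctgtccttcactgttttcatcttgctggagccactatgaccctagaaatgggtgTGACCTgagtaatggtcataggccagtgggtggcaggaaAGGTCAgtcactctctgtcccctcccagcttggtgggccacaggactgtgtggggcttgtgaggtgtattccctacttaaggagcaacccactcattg

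MuRF1 knockdown went with lower levels of most genes of the pathway, from fatty acid uptake to the last step of the oxidation cycle. In stretched cells 30 of the 41 tested members fell and 4 rose (73.2% and 9.76%), at an adjusted p under 0.05. Of all 14411 tested genes, 52% passed in this comparison, 26.9% lower and 25.1% higher. In non-stretched cells 33 members fell and 3 rose (80.5% and 7.32%), whereas 57.8% of all tested genes passed, 29.7% lower and 28% higher. The median log2 fold change of the 41 members was -0.31 with stretch and -0.36 without, and that of all tested genes was 0.00 and 0.01. With libraries scaled by their totals alone, 6347 of the 8748 genes called with stretch were higher, against 3619 of 7494 with TMM, and without stretch 6818 of 9453, against 4040 of 8325. All 6 knockdown libraries lay below all 6 control libraries for 23 members with stretch and 25 without, shares of all tested genes being 17.3% and 21.5%. All knockdown libraries lay above all control libraries for 1 member, Acot2, in each comparison, and for 14.7% and 16.3% of all tested genes. Without stretched control replicate 5, 32 members fell and 4 rose with stretch, and 33 fell and 4 rose without. Among all genes then tested 29.3% were lower and 26.1% higher with stretch, and 31.3% and 30.1% without.

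**Figure D2:**
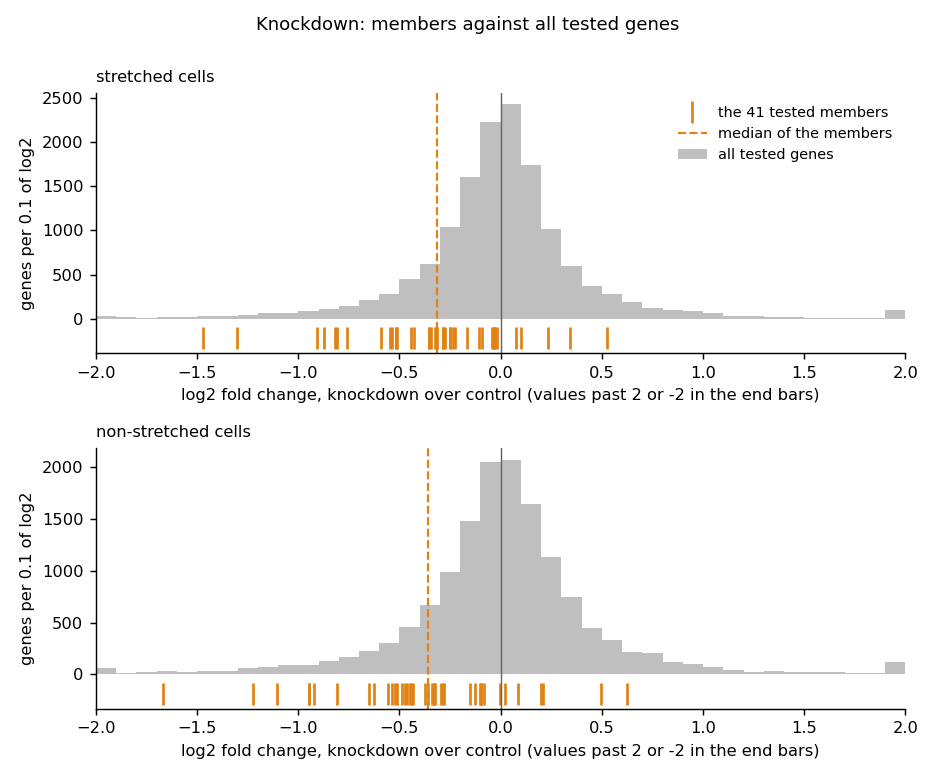
Distribution of the log2 fold change, knockdown over control, over all 14411 tested genes (grey bars, in steps of 0.1), in stretched cells above and in non-stretched cells below. Orange ticks are the 41 tested members and the dashed line is their median, at -0.31 with stretch and -0.36 without.

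Markers of several cell types moved with the knockdown too. The summed level of the 11 atrial cardiomyocyte markers was 1248 to 1287 CPM in knockdown and 2117 to 2561 CPM in control libraries with stretch, and 1126 to 1225 CPM in knockdown and 2229 to 2507 CPM in control libraries without. Of the 10 tested, 8 fell in both comparisons and Nkx2-5 rose in both. Summed fibroblast markers were 95.5 to 101 CPM in knockdown and 216 to 243 CPM in control libraries with stretch. Without stretch they were 79.9 to 97.2 CPM in knockdown and 244 to 249.8 CPM in control libraries. Of the 5 tested, 4 fell in both comparisons, and Pdgfra passed in neither. The 9 adipocyte markers summed to 7.89 to 10.0 CPM in knockdown and 16.0 to 20.3 CPM in control libraries over both stretch states. Of these, 7, Adipoq among them, were under 1 CPM in every group. The others, Fabp4 and Adrb3, fell in both comparisons, and Fabp4 is also among the other lipid genes listed below. Hepatocyte, macrophage and endothelial markers summed to at most 10.2 CPM in any library. Of them Apob fell by 2.00 with stretch and 2.42 without and Tek by 0.62 and 0.68, Cd68 rose by 0.40 and 0.48, Apoa1 rose with stretch (0.75) and Itgam without (1.13). The part of these markers in the falls of the pathway was not tested, and in bulk RNA fewer cells of a type and less RNA per cell cannot be told apart.

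**Figure D3:**
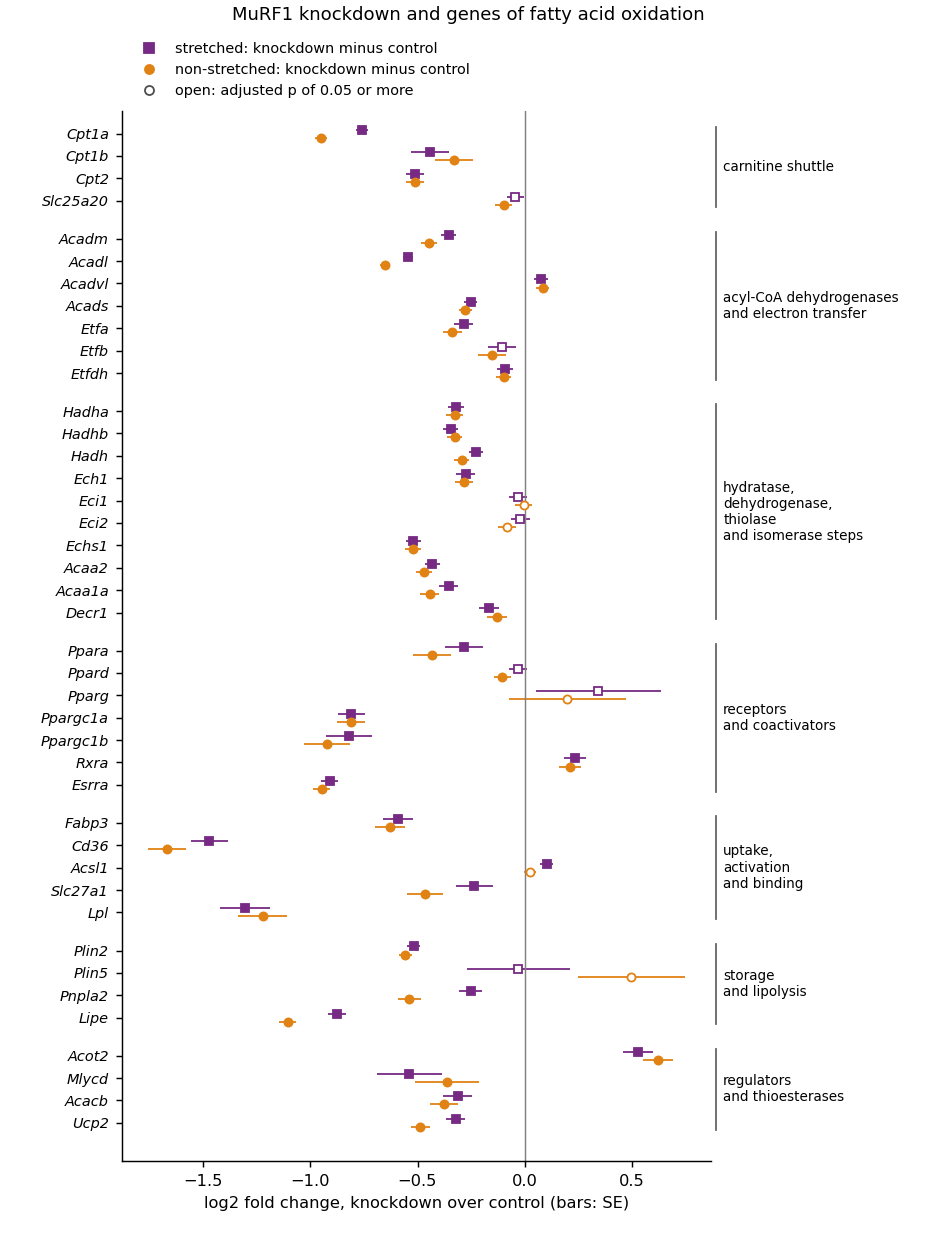
Log2 fold change, knockdown over control, with its SE for each of the 41 tested members by role, in stretched cells (squares) and non-stretched cells (circles). Filled symbols passed an adjusted p of 0.05. Cd36 and Lpl lie farthest to the left, and Acot2 farthest to the right among filled symbols.

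Genes of fatty acid uptake held the largest falls. Cd36, the membrane carrier of long-chain fatty acids, had 5.22, 5.50 and 6.40 CPM in the lowest, median and highest stretched knockdown library, against 11.9, 16.4 and 17.1 CPM in stretched control libraries. Without stretch it had 4.21, 4.84 and 6.12 CPM in knockdown libraries, against 14.1, 15.6 and 18.0 CPM in control libraries. The groups did not overlap in either state, with log2 fold changes of -1.47 (SE 0.0859, adjusted p = 3.46e-14) with stretch and -1.67 (SE 0.0872, adjusted p = 2.31e-15) without. The stretched control library at 11.9 CPM was replicate 5.

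Lpl, the lipoprotein lipase that frees fatty acids from circulating triglyceride, had 98.6, 149 and 160.1 CPM in the lowest, median and highest stretched knockdown library, against 294, 354 and 387 CPM in stretched control libraries. Without stretch the values were 116, 139 and 177 CPM in knockdown libraries, against 284, 329.6 and 394 CPM in control libraries. Knockdown libraries again lay below every control library. Lpl had log2 fold changes of -1.30 (SE 0.116, adjusted p = 1.46e-09) with stretch and -1.22 (SE 0.115, adjusted p = 3.46e-09) without. Fabp3 fell as well, by 0.59 (SE 0.0689, adjusted p = 6.64e-08) with stretch and by 0.63 (SE 0.0689, adjusted p = 1.95e-08) without. Its level averaged 175 ± 5.69 CPM in knockdown and 263 ± 36.3 CPM in control libraries with stretch, where stretched control replicate 5 had the lowest control value at 189.6 CPM. Slc27a1, a fatty acid transport protein, fell by 0.24 with stretch (SE 0.0866, adjusted p = 0.0245) and by 0.46 without (SE 0.0853, adjusted p = 4.03e-05). The call with stretch was lost without knockdown replicate 2 or 5 or control replicate 4 or 6, at an adjusted p of 0.0515 to 0.0701, and with scaling by library totals alone, at -0.12 (adjusted p = 0.261). Acsl1, an acyl-CoA synthetase of the same step, went the other way with stretch, at 0.10 (SE 0.0288, adjusted p = 0.00418), and did not pass without it, at 0.02 (SE 0.0287, adjusted p = 0.509).

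**Figure D4:**
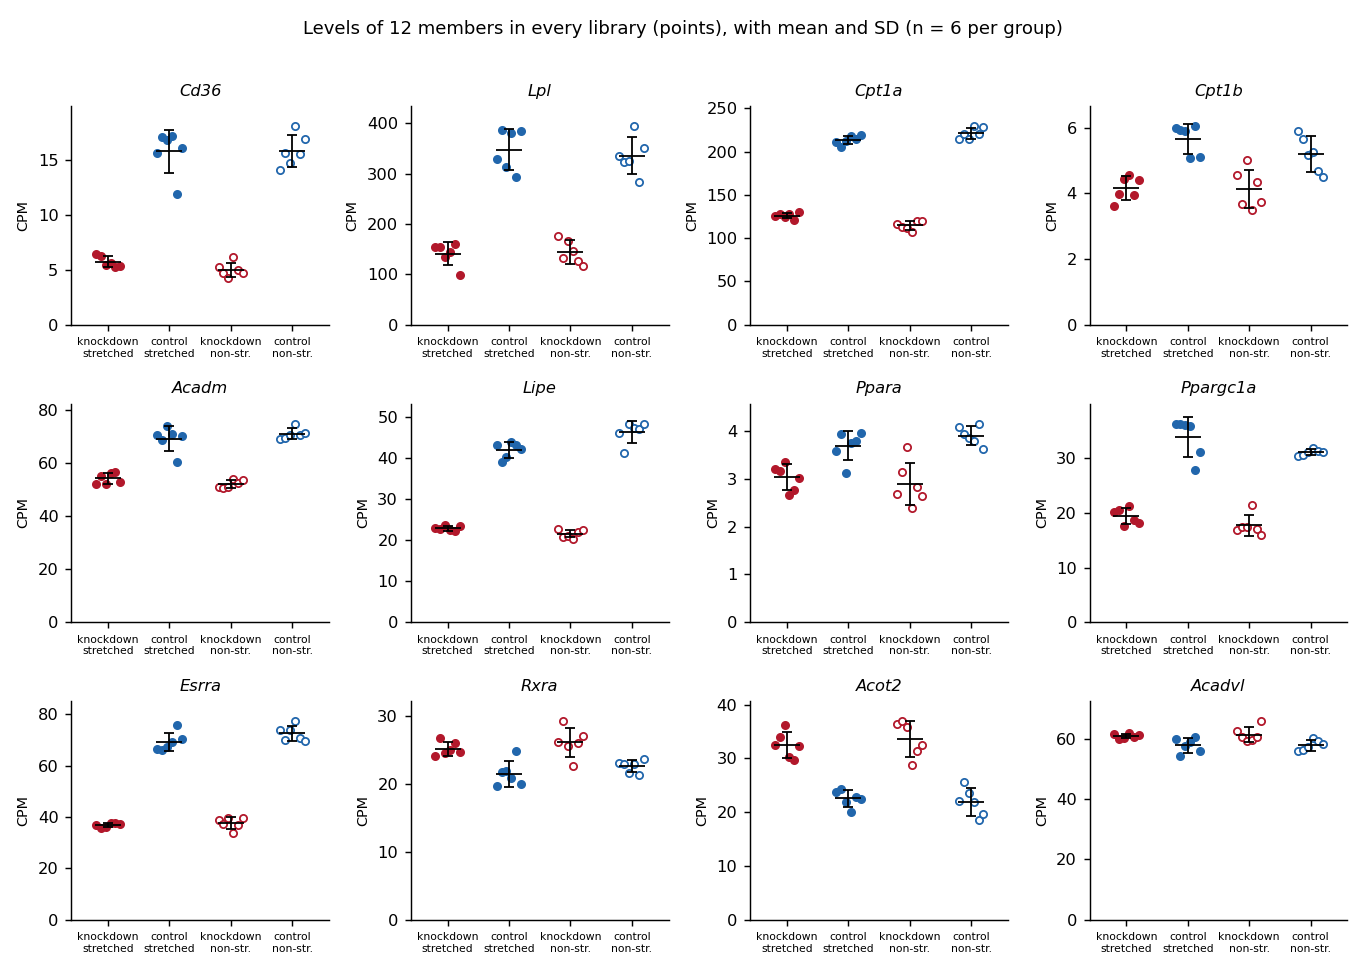
CPM of 12 members in each of the 24 libraries (points; filled for stretched, open for non-stretched cells; red for knockdown, blue for control), with the mean and SD of the 6 libraries of a group in black. Knockdown libraries of Cd36, Lpl, Cpt1a, Acadm, Lipe, Ppargc1a and Esrra lay below all control libraries in both stretch states, and those of Acot2 above.

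In the carnitine shuttle, Cpt1a and Cpt2 fell clearly and the carrier between them little. Cpt1a, which forms acylcarnitine on the outer membrane, had 121, 127 and 129.8 CPM in the lowest, median and highest stretched knockdown library, against 206, 213 and 219 CPM in stretched control libraries. Without stretch it had 107, 115 and 120.0 CPM in knockdown libraries, against 214, 220.3 and 229 CPM in control libraries. With no overlap, Cpt1a had log2 fold changes of -0.76 (SE 0.0288, adjusted p = 4.77e-18) with stretch and -0.95 (SE 0.0288, adjusted p = 2.89e-20) without. Cpt1b, the muscle form, had 3.61, 4.20 and 4.56 CPM in stretched knockdown libraries, against 5.07, 5.92 and 6.05 CPM in stretched control libraries, and 3.49, 4.04 and 5.01 CPM in non-stretched knockdown libraries, against 4.51, 5.22 and 5.91 CPM in non-stretched control libraries. Its groups overlapped without stretch, and it fell by 0.44 (SE 0.0883, adjusted p = 0.000122) with stretch and by 0.33 (SE 0.0883, adjusted p = 0.00229) without, a call lost with scaling by library totals alone (-0.20, adjusted p = 0.0687). Cpt2, which turns acylcarnitine back into acyl-CoA in the matrix, fell by 0.51 in both states (SE 0.0417 and 0.0411, adjusted p = 3.56e-11 and 2.44e-11). Slc25a20, the carnitine-acylcarnitine carrier of the inner membrane, did not pass with stretch, at -0.04 (SE 0.0397, adjusted p = 0.372). Without stretch Slc25a20 fell by 0.10 (SE 0.0397, adjusted p = 0.0376), and its sign turned when libraries were scaled by their totals alone. That call was also lost without stretched knockdown replicate 1, non-stretched knockdown replicate 2, 4 or 5, or non-stretched control replicate 3, 4, 5 or 6, at an adjusted p of 0.0608 to 0.134. DESeq2 (adjusted p = 0.0568), its size factors (adjusted p = 0.0589), the authors' factors (adjusted p = 0.0729) and no filter (-0.06, adjusted p = 0.242) ended it too.

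The acyl-CoA dehydrogenases, which begin each cycle, did not move as 1 group. Acadm, the medium-chain enzyme, had 51.9, 53.8 and 56.7 CPM in the lowest, median and highest stretched knockdown library, against 60.3, 70.3 and 74.0 CPM in stretched control libraries. Without stretch Acadm had 50.5, 51.8 and 53.8 CPM in knockdown libraries, against 68.9, 70.5 and 74.7 CPM in control libraries. There was no overlap, with log2 fold changes of -0.35 (SE 0.0365, adjusted p = 3.84e-09) with stretch and -0.45 (SE 0.0365, adjusted p = 3.23e-11) without. Acadl fell by 0.54 (SE 0.0241, adjusted p = 1.07e-16) with stretch and by 0.65 (SE 0.0241, adjusted p = 1.53e-18) without, and Acads, the short-chain enzyme, by 0.25 (adjusted p = 8.24e-08) and 0.28 (adjusted p = 9.29e-09). Acadvl, which acts on very long chains, rose in both states by a small amount. Its level averaged 61.0 ± 0.713 CPM in knockdown and 58.0 ± 2.44 CPM in control libraries with stretch, and 61.5 ± 2.51 CPM in knockdown and 58.0 ± 1.77 CPM in control libraries without (n = 6 each, SD). The log2 fold change was 0.08 in each (adjusted p = 0.0407 and 0.0200). The call of Acadvl with stretch was lost without stretched knockdown replicate 3, 4, 5 or 6 or stretched control replicate 2, 3 or 6 (adjusted p up to 0.123), and that without stretch without knockdown replicate 6 or control replicate 1 (adjusted p up to 0.0713).

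The electron transfer flavoprotein passes electrons from these dehydrogenases to the respiratory chain. Etfa, its alpha subunit, fell by 0.28 (SE 0.0446, adjusted p = 4.94e-06) with stretch and by 0.34 (SE 0.0445, adjusted p = 2.66e-07) without. Etfb, its beta subunit, was at -0.10 with stretch (adjusted p = 0.184) and fell by 0.15 without (SE 0.0647, adjusted p = 0.0475), a call lost on leaving out any 1 of 18 of the 24 libraries, at an adjusted p of 0.0505 to 0.105. Leaving out any of the other 6 kept the call. They were stretched control replicates 4, 5 and 6, non-stretched knockdown replicate 6 and non-stretched control replicates 2 and 6. Etfb also lost its call by DESeq2 (adjusted p = 0.0608), with DESeq2 size factors (adjusted p = 0.0571), with no filter (adjusted p = 0.173) and with the code letter as a block (adjusted p = 0.0523), and with scaling by library totals alone it was at -0.02 (adjusted p = 0.737). Etfdh, the dehydrogenase that takes up these electrons, fell by 0.09 with stretch (SE 0.0358, adjusted p = 0.0343) and by 0.10 without (SE 0.0358, adjusted p = 0.0210), and both signs turned with scaling by library totals alone. With no filter both calls of Etfdh were lost (adjusted p = 0.125 with stretch and 0.189 without), and with the authors' factors the call with stretch (adjusted p = 0.0904). With stretch its call was lost without stretched knockdown replicate 1, 2, 5 or 6 or stretched control replicate 1, 3, 4 or 6 (adjusted p up to 0.0897). Without stretch it was lost without stretched knockdown replicate 1, non-stretched knockdown replicate 2 or 6, or non-stretched control replicate 4 (adjusted p up to 0.0981).

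Of the 10 genes of the later steps, 8 fell in both states, by 0.17 to 0.52 with stretch and by 0.13 to 0.52 without. The 2 subunits of the mitochondrial trifunctional protein had nearly the same log2 fold changes. Hadha fell by 0.32 (SE 0.0378, adjusted p = 4.88e-08) with stretch and by 0.33 (SE 0.0377, adjusted p = 2.49e-08) without, and Hadhb by 0.34 (SE 0.0350, adjusted p = 3.02e-09) and 0.33 (SE 0.0349, adjusted p = 6.55e-09). Hadha averaged 55.2 ± 2.72 CPM in knockdown and 68.9 ± 2.83 CPM in control libraries with stretch, and Hadhb 126 ± 2.33 CPM in knockdown and 160.4 ± 5.93 CPM in control libraries (n = 6 each, SD). Echs1, the short-chain enoyl-CoA hydratase, showed the largest fall of these steps, by 0.52 in both states (SE 0.0363 each, adjusted p = 1.57e-12 and 1.10e-12). Its level averaged 54.6 ± 3.87 CPM in knockdown and 78.3 ± 2.40 CPM in control libraries with stretch (n = 6 each, SD). Acaa2, the mitochondrial thiolase of the last step, fell by 0.43 with stretch and 0.47 without, and Acaa1a, its peroxisomal counterpart, by 0.35 and 0.44. Reads of Acaa1a can be shared with the near-identical Acaa1b, so its values are uncertain. Decr1, a reductase for unsaturated fatty acids, fell by 0.17 with stretch (SE 0.0478, adjusted p = 0.00433) and by 0.13 without (SE 0.0475, adjusted p = 0.0226), where its sign turned with scaling by library totals alone. That scaling also ended its call with stretch (-0.05, adjusted p = 0.283), and the call without stretch was lost with no filter (-0.09, adjusted p = 0.127). Its call without stretch was lost without stretched knockdown replicate 1, non-stretched knockdown replicate 1 or 3, or non-stretched control replicate 4 or 5 (adjusted p up to 0.0707). Eci1 and Eci2, the isomerases that let unsaturated chains enter the cycle, passed in neither state.

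Receptors and coactivators moved in different directions. Ppara had 2.66, 3.10 and 3.37 CPM in the lowest, median and highest stretched knockdown library, against 3.13, 3.78 and 3.97 CPM in stretched control libraries. Without stretch it had 2.40, 2.76 and 3.67 CPM in knockdown libraries, against 3.63, 3.90 and 4.16 CPM in control libraries. The groups overlapped in both states, and Ppara fell by 0.29 (SE 0.0881, adjusted p = 0.00802) with stretch and by 0.43 (SE 0.0876, adjusted p = 0.000130) without. The call with stretch was lost with scaling by library totals alone (-0.17, adjusted p = 0.118). Ppard did not pass with stretch, at -0.03 (adjusted p = 0.555), and fell by 0.10 without (SE 0.0410, adjusted p = 0.0318), where its sign turned with scaling by library totals alone. That call was lost without stretched knockdown replicate 1, non-stretched knockdown replicate 3, 4 or 5, or non-stretched control replicate 1 or 2, and without non-stretched knockdown replicate 4 the fold change was -0.05 (adjusted p = 0.307). DESeq2 (adjusted p = 0.0634), its size factors (adjusted p = 0.0679), no filter (adjusted p = 0.202), only the groups compared (adjusted p = 0.0514) and the authors' factors (adjusted p = 0.102) ended the call as well. Pparg had 5 to 21 estimated counts per library and passed in neither state.

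Ppargc1a, the coactivator PGC-1α, had 17.7, 19.5 and 21.2 CPM in the lowest, median and highest stretched knockdown library, against 27.8, 36.0 and 36.3 CPM in stretched control libraries. Without stretch it had 16.0, 17.3 and 21.5 CPM in knockdown libraries, against 30.4, 31.2 and 31.8 CPM in control libraries. No libraries overlapped, and Ppargc1a fell by 0.81 in both states (SE 0.0644 and 0.0649, adjusted p = 2.41e-11 and 2.09e-11). Its relative Ppargc1b fell by 0.82 (SE 0.109, adjusted p = 3.92e-07) with stretch and by 0.92 (SE 0.107, adjusted p = 3.18e-08) without. Esrra, the receptor ERRα, had 35.5, 37.0 and 37.7 CPM in stretched knockdown libraries, against 65.9, 68.2 and 75.6 CPM in stretched control libraries, and 33.8, 38.0 and 39.7 CPM in non-stretched knockdown libraries, against 69.6, 72.4 and 77.3 CPM in non-stretched control libraries. With a wide gap between the groups, Esrra fell by 0.91 (SE 0.0386, adjusted p = 4.34e-17) with stretch and by 0.95 (SE 0.0385, adjusted p = 1.12e-17) without. Rxra, the partner of the PPAR receptors, rose by 0.23 (SE 0.0532, adjusted p = 0.000542) with stretch and by 0.21 (SE 0.0527, adjusted p = 0.00123) without. Its libraries overlapped, at 24.0 to 26.7 CPM in knockdown and 19.7 to 24.9 CPM in control libraries with stretch, and 22.6 to 29.2 CPM in knockdown and 21.3 to 23.6 CPM in control libraries without.

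Of the 4 members of lipid storage and breakdown, Lipe, Pnpla2 and Plin2 fell in both states and Plin5 passed in neither. Among the other listed genes of the lipid droplet, Abhd5, the activator of the Pnpla2 lipase, rose by 0.17 with stretch (adjusted p = 0.00944) and 0.26 without (adjusted p = 0.000182), and Plin3 did not pass, at -0.05 in both states. Lipe, the hormone-sensitive lipase, had 22.1, 22.8 and 23.6 CPM in the lowest, median and highest stretched knockdown library, against 39.0, 42.8 and 43.9 CPM in stretched control libraries. Without stretch it had 20.4, 21.6 and 22.6 CPM in knockdown libraries, against 41.2, 47.3 and 48.4 CPM in control libraries. The groups lay far apart, and Lipe fell by 0.88 (SE 0.0400, adjusted p = 2.08e-16) with stretch and by 1.11 (SE 0.0400, adjusted p = 9.55e-19) without. Pnpla2, the lipase that starts triglyceride breakdown, fell by 0.25 (SE 0.0549, adjusted p = 0.000345) and 0.54 (SE 0.0548, adjusted p = 2.73e-09), and Plin2, a droplet coat protein, by 0.52 (SE 0.0312, adjusted p = 6.64e-14) and 0.56 (SE 0.0311, adjusted p = 9.58e-15). Plin5, a coat protein of oxidative tissues, averaged 0.961 ± 0.177 CPM in knockdown and 0.675 ± 0.165 CPM in control libraries without stretch (n = 6 each, SD), and passed in neither state.

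Acot2, a mitochondrial enzyme that splits acyl-CoA back into free fatty acid, was the member with the largest rise. It had 29.6, 32.4 and 36.2 CPM in the lowest, median and highest stretched knockdown library, against 20.0, 22.7 and 24.3 CPM in stretched control libraries. Without stretch it had 28.8, 34.2 and 36.9 CPM in knockdown libraries, against 18.6, 22.0 and 25.6 CPM in control libraries. Every knockdown library lay above every control library, with log2 fold changes of 0.53 (SE 0.0710, adjusted p = 4.95e-07) with stretch and 0.62 (SE 0.0707, adjusted p = 2.21e-08) without. Acot2 lies on chromosome 12 at 83987861 to 83993873 beside its near-identical copy Acot1 at 84009490 to 84018371 (GRCm38, GENCODE), which had at most 11 estimated counts, and how reads of the pair were divided is uncertain. Acacb, which makes the malonyl-CoA that inhibits the carnitine step, and Mlycd, which removes it, both fell. Acacb fell by 0.31 (SE 0.0676, adjusted p = 0.000305) with stretch and by 0.38 (SE 0.0672, adjusted p = 2.59e-05) without, and Mlycd by 0.54 (SE 0.151, adjusted p = 0.00402) and 0.36 (SE 0.150, adjusted p = 0.0413). The call of Mlycd without stretch was lost without stretched knockdown replicate 1, non-stretched knockdown replicate 2, 3, 4 or 6, or non-stretched control replicate 2, 3, 5 or 6 (adjusted p up to 0.0968). It was also lost with scaling by library totals alone (-0.23, adjusted p = 0.189), no filter (adjusted p = 0.0882) and the authors' factors (adjusted p = 0.0567). Ucp2, a carrier of the inner mitochondrial membrane, fell by 0.32 (SE 0.0439, adjusted p = 5.26e-07) with stretch and by 0.49 (SE 0.0439, adjusted p = 2.28e-10) without.

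Both knockdown comparisons, which share no libraries, called the same direction in 33 members. Of these, 30 fell in both and Acadvl, Rxra and Acot2 rose in both. Of all tested genes 24.7% fell in both and 21.3% rose in both. Slc25a20, Etfb and Ppard passed without stretch and not with it, and Acsl1 passed with stretch and not without it, while Eci1, Eci2, Pparg and Plin5 passed in neither. Stretched control replicate 5 stood apart as the lowest of its group for Etfb and Eci1 and the highest for Ppard and Plin5. Their results with stretch may rest on that library. Etfb had 59.3 CPM there, against 85.1 to 88.4 CPM in other stretched control libraries and 71.3 to 81.2 CPM in stretched knockdown libraries. Eci1 had 51.3 CPM there, against 62.8 to 66.6 CPM and 60.2 to 62.2 CPM. For 24 of the 30 that fell in both, the log2 fold change was closer to 0 with stretch than without. None of these differences passed the main edgeR test of the difference itself, given with the stretch results. Over all tested genes too, the median absolute log2 fold change was smaller with stretch, at 0.172 against 0.198 without. That of the 41 members was 0.323 with stretch and 0.432 without. The share of genes closer to 0 was not counted over all tested genes, so whether this shift is particular to the members was not tested. Across the 41 genes, which are not independent replicates, the log2 fold changes of the 2 comparisons had a Pearson correlation of 0.956. It was not computed over all tested genes, so it cannot be read as particular to the members.

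Besides the members, 84 other genes of lipid uptake, storage, synthesis and oxidation were listed, of which 83 were in the table and 73 were tested. With knockdown, 40 of the 73 fell and 14 rose in stretched cells, and 40 fell and 12 rose in non-stretched cells. These are 54.8% lower and 19.2% higher with stretch and 54.8% and 16.4% without, beside 26.9% and 25.1%, and 29.7% and 28%, of all tested genes. Their median log2 fold change was -0.16 in each.

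Stretch for 60 min moved few members in either kind of cell. In knockdown cells 1 of the 41 tested members rose and 1 fell, while 8.93% of all tested genes passed, 5.32% higher and 3.61% lower. Cpt1a rose by 0.14 (SE 0.0288, adjusted p = 0.00251), and the stretched libraries, at 121 to 129.8 CPM, all lay above the non-stretched ones, at 107 to 120.0 CPM. It was the 1 member without overlap in that direction, which 3.5% of all tested genes showed, and no member showed it in the other, which 1.93% of all tested genes did. Cpt2 fell by 0.14 (SE 0.0419, adjusted p = 0.0293), with overlap, at 20.9, 22.8 and 24.0 CPM in the lowest, median and highest stretched library, against 23.1, 25.2 and 26.1 CPM in non-stretched libraries. The call of Cpt2 was lost without stretched knockdown replicate 1, 4 or 6 or non-stretched knockdown replicate 2, 5 or 6, at an adjusted p of 0.0522 to 0.0889. With the authors' factors it was lost as well (adjusted p = 0.124). That of Cpt1a held without any 1 of the 24 libraries.

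In control cells 2 members fell with stretch by edgeR and 0 rose, while 5.95% of all tested genes passed, 2.55% higher and 3.39% lower. Scaling by library totals alone made 403 of 625 called genes higher, against 368 of 857 with TMM. At an unadjusted p under 0.05 there were 12 of 41 members, against 21.5% of all tested genes. DESeq2, fitted to all 20351 genes of the table, called 4 of the 44 members lower and 0 higher. It called 1201 genes in all, 522 of them higher. Lipe fell by 0.15 (SE 0.0387, adjusted p = 0.0236), with a mean of 42.0 ± 1.97 CPM under stretch and 46.4 ± 2.68 CPM without (n = 6 each, SD). Cpt2 fell by 0.14 (SE 0.0408, adjusted p = 0.0361), with a mean of 32.4 ± 1.05 CPM under stretch and 35.8 ± 2.14 CPM without (n = 6 each, SD). Libraries of the groups overlapped for both, and both calls were lost with no filter, with only the groups compared, with the authors' factors and with library totals alone (adjusted p 0.0601 to 0.217). Acads did not pass, at -0.09 (adjusted p = 0.0834), but was the 1 member whose stretched libraries all lay below the non-stretched ones, as did 2.03% of all tested genes, and 1.16% of them lay above. The median log2 fold change of the members was -0.05, against -0.01 over all tested genes, and in knockdown cells both medians were -0.01.

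Calls in stretched control cells depended on single libraries. Without stretched control replicate 5 there were 9 members, with Ppargc1a rising by 0.18 (SE 0.0550, adjusted p = 0.0303) and 8 falling, among them Lipe (-0.15, adjusted p = 0.00977), Ppard (-0.13, adjusted p = 0.0224), Ppargc1b (-0.28, adjusted p = 0.0286) and Slc27a1 (-0.26, adjusted p = 0.0494). Over all genes 2023 were called without that library, against 857 with it, and these were 5.68% higher and 8.3% lower among the genes then tested. Without stretched knockdown replicate 1, stretched control replicate 3 or non-stretched control replicate 3 or 4, no member was called. A single member was called without stretched control replicate 1, 2 or 4 or non-stretched control replicate 2 or 5, and 3 members without stretched knockdown replicate 2, stretched control replicate 6, or replicate 6 of either non-stretched group. The call of Cpt2 was lost without any of the 9 libraries that left 0 or 1 member called (adjusted p 0.0574 to 0.0932). That of Lipe was lost without the 4 that left 0 and without stretched control replicate 2 (adjusted p 0.0531 to 0.0679).

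**Figure D5:**
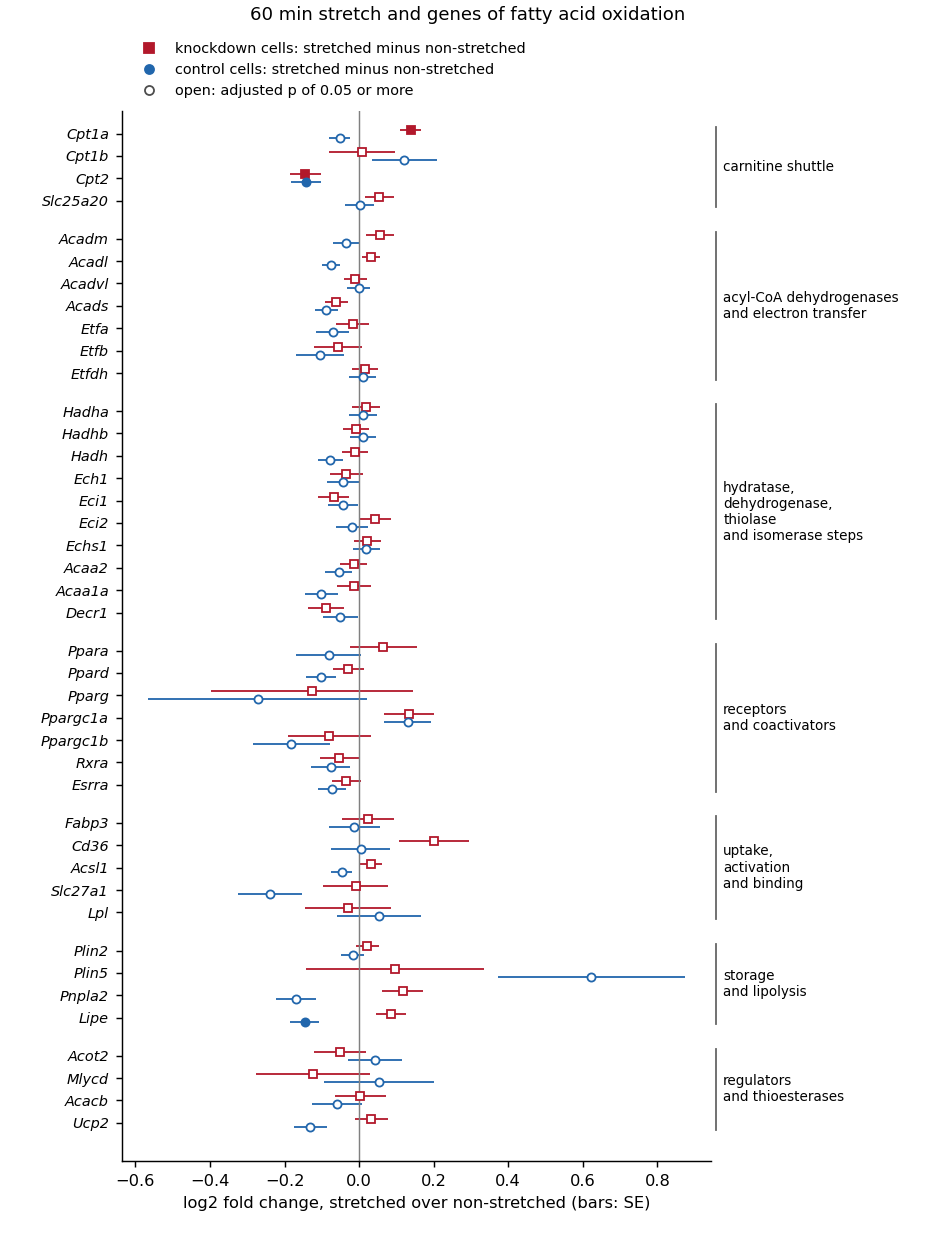
Log2 fold change, stretched over non-stretched, with its SE for each of the 41 tested members by role, in knockdown cells (squares) and control cells (circles). Filled symbols passed an adjusted p of 0.05, which were Cpt1a and Cpt2 in knockdown cells and Cpt2 and Lipe in control cells.

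The stretch response did not differ detectably between knockdown and control cells for any member in the main edgeR fit. Of all tested genes, 3 (0.0208%) passed this test of the difference, all 3 with a higher response in knockdown cells (0.0208%) and none with a lower one (0%). Among the members 0 passed, and 5 of 41 had an unadjusted p under 0.05, against 9.40% of all tested genes. Cpt1a had the smallest adjusted p, with a stretch response of 0.14 in knockdown cells and -0.05 in control cells, a difference of 0.19 (SE 0.0405, adjusted p = 0.0619). Lipe responded by 0.08 in knockdown cells and -0.15 in control cells, a difference of 0.23 (SE 0.0563, adjusted p = 0.102), and Pnpla2 by 0.12 in knockdown cells and -0.17 in control cells, a difference of 0.29 (SE 0.0775, adjusted p = 0.163). DESeq2, fitted to all 20351 genes of the table with all 44 members, called 126 genes. The 4 members among them were Cpt1a (0.19, adjusted p = 0.00188), Lipe (0.23, adjusted p = 0.0184), Acadl (0.11, adjusted p = 0.0370) and Pnpla2 (0.29, adjusted p = 0.0477). By edgeR, Cpt1a and Lipe passed without stretched control replicate 5 (adjusted p = 0.0297 and 0.0426), Cpt1a and Pnpla2 without non-stretched knockdown replicate 6 (adjusted p = 0.0350 each), and Lipe without non-stretched control replicate 2 (adjusted p = 0.0466). Over all genes these fits called 109, 48 and 8 genes in that order, against 3 with all libraries. The first of them tested 14466 genes, and shares for the others were not computed. With the code letter as a block, edgeR called 45 genes, Cpt1a among them (0.19, SE 0.0381, adjusted p = 0.0460). Of the other listed lipid genes, 2 rose and 3 fell with stretch in knockdown cells, 2 rose and 3 fell in control cells (2.74% and 4.11% of the 73 in each, beside 5.32% and 3.61% of all tested genes in knockdown cells and 2.55% and 3.39% in control cells), and 0 of 73 passed the test of the difference.

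The spread between libraries of a group differed among members. The median coefficient of variation over the 41 tested members was 4.32% in stretched knockdown cells, 6.59% in stretched control cells, 5.95% in non-stretched knockdown cells and 4.40% in non-stretched control cells. The steadiest were Acadvl in stretched knockdown cells (1.17%), Cpt1a in stretched control cells (2.30%), Acadl in non-stretched knockdown cells (1.52%) and Acaa1a in non-stretched control cells (0.911%). The most variable were Mlycd (28.75%), Plin5 (61.7%), Pparg (44.6%) and Pparg (25.8%), in the same order of groups.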

How the data were processed

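Per the labels, RNA of 24 HL-1 libraries was extracted with TRIzol right after stretch, and stranded poly(A) libraries were made. The authors deposited estimated counts for 20351 genes, of which 36.6% were whole within a tolerance of 1e-09, and a normalized signal for the same genes, used here only as an alternative scaling. Among the tools in the submitters' processing notes are DESeq2 1.18.1 under R 3.4.4 and kallisto 0.44.0, with GRCm38.p6 as the build. The step from transcripts to genes, and the use of strand, are not given there.

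Estimated counts were rounded and tested with edgeR 4.0.16 (R 4.3.3, limma 3.58.1). TMM factors scaled the libraries, and 14411 genes passed filterByExpr (count of at least 10, total of at least 15). A quasi-likelihood fit, robust, with a coefficient for each group, 20 residual degrees of freedom and no covariate used all 24 libraries, and glmQLFTest gave 5 comparisons: knockdown with stretch, knockdown without stretch, stretch in knockdown cells, stretch in control cells and the difference between both stretch responses. Adjusted p-values are Benjamini-Hochberg values over all tested genes, with a threshold of 0.05, and are those of edgeR unless another tool is named. Levels are CPM after TMM scaling. Transcript lengths and positions came from GENCODE vM21 on GRCm38.

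Every member was accounted for. Named with full statistics were up to 6 called members per direction with the smallest adjusted p, any called member with an absolute log2 fold change of at least 0.5, and Cpt1a, Cpt1b, Acadm, Ppara, Ppargc1a and Cd36. Members, role groups, lists and tests were chosen with earlier results of these data known. Names outside this rule were chosen after their values were seen. Library totals were 23564268 to 54755203 estimated counts. The 60 replicate pairs had a chi-square per gene of at least 2.85, so none agreed within sampling noise. Same-numbered replicates were not taken as pairs. The fit was tested on simulated data. Alternatives were DESeq2 1.42.0, its size factors, no filter, only the groups compared, replicate or code letter blocks, leaving out each library and, added after seeing the data, the authors' gene-wise factors and library totals alone.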

Additional observations from a re-analysis of the deposited data

Results flagged for a closer look

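In 18 of 164 sets of 6 libraries, 1 set per member and group, the highest or lowest library stood apart from the other 5 by more than Dixon's 95% critical value allows, which chance gives in about 1 of 20 sets. In stretched control replicate 5 there were 10 of them. Its Fabp3 level was 189.6 CPM, against 272 to 283 CPM in the other 5 libraries, Cd36 was 11.9 CPM, Hadhb 148 CPM, Etfa 118 CPM, Etfb 59.3 CPM, Etfdh 79.3 CPM and Eci1 51.3 CPM, each the lowest of its group. Ppargc1b at 12.7 CPM, Ppard at 50.2 CPM and Plin5 at 2.45 CPM were the highest of their group in that library.

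In non-stretched knockdown replicate 4 there were 4. Ppargc1a at 21.5 CPM, Hadhb at 142 CPM and Etfdh at 90.9 CPM were the highest of the group, and Cpt2 at 23.1 CPM the lowest. Single cases were Acadl at 145 CPM in stretched knockdown replicate 2 (highest), Hadha at 63.2 CPM in stretched control replicate 2 (lowest), Hadha at 59.8 CPM in non-stretched knockdown replicate 6 (highest) and Lipe at 41.2 CPM in non-stretched control replicate 2 (lowest). The causes were not tested.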

How the results depend on the processing

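Of the members called with knockdown, 31 of 34 with stretch and 29 of 36 without kept their call and direction under every alternative other than the authors' factors and library totals alone, and 29 and 28 when these were included. Counts of members called ranged from 31 to 36 with stretch and from 30 to 37 without on leaving out 1 library. Those of all genes called ranged from 7102 to 8017 with stretch and from 7974 to 8888 without. Library totals alone moved the median log2 fold change of all genes to 0.12 with stretch and 0.14 without, against 0.00 and 0.01. They called 32 members in each, 26 lower and 6 higher. Under this scaling 5 results reversed. They were Etfdh with stretch (0.0233) and Slc25a20 (0.0338), Etfdh (0.0321), Decr1 (0.00223) and Ppard (0.0264) without, and all 5 still lay below the median of all genes. For the stretch responses, leaving out 1 library gave 856 to 1930 genes and 1 to 3 members in knockdown cells, and 568 to 2023 genes and 0 to 9 members in control cells, where stretched control replicate 5 gave the highest counts. For the difference between responses it gave 0 to 109 genes and 0 to 2 members. The authors' factors gave 1 member for stretch in knockdown cells, 566 genes and 0 members for stretch in control cells, and 1 gene for the difference. Library totals alone gave 0 members in control cells and 1 gene for the difference. In control cells, fitting only the groups compared gave 377 genes and 0 members, no filter 619 genes and 0 members, and DESeq2 1201 genes and 4 members. For the difference, DESeq2 gave 126 genes and 4 members and the code letter as a block 45 genes and 1 member. Same-numbered replicates in different groups did not vary together, with correlations of -0.06 to 0.15 over 36 pairs of libraries, 3 of them over 0.1. In 8 of the 36 pairs the first library correlated best, among the 6 libraries of the other group, with its own number. With the replicate block, 34 members with stretch and 35 without were called for knockdown, 2 and 3 for stretch in knockdown and control cells, and 0 members and 9 genes for the difference. Among all genes it called 7567 and 8378 for knockdown with and without stretch, and 1403 and 946 for stretch in knockdown and control cells. Etfb without stretch lost its call under that block (adjusted p = 0.0577). The cause of these shifts was not tested. Members with few counts, such as Pparg and Plin5, limit what could be detected.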

Other observations

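Among the other listed lipid genes, those named here were chosen after their values were seen. Large falls under knockdown included the fatty acid binding proteins Fabp4, by 1.09 (adjusted p = 8.00e-09), and Fabp5, by 1.06 (adjusted p = 8.65e-13), both with stretch, and both also fell without it (adjusted p = 1.17e-09 and 6.84e-14). Rxrg, a relative of Rxra, fell by 1.17 in both states (adjusted p = 1.33e-11 and 1.07e-11), and Scd1, a fatty acid desaturase, by 0.81 (adjusted p = 9.29e-15) and 0.92 (adjusted p = 3.74e-16). G0s2, an inhibitor of the lipase encoded by Pnpla2, averaged 5.72 ± 0.426 CPM in knockdown and 21.1 ± 2.05 CPM in control libraries with stretch, and 6.98 ± 0.779 CPM in knockdown and 25.4 ± 1.87 CPM in control libraries without (n = 6 each, SD), log2 fold changes of -1.88 (adjusted p = 7.84e-18) and -1.86 (adjusted p = 3.08e-18). Mgll, the lipase that completes triglyceride breakdown, fell by 1.21 (adjusted p = 1.16e-18) with stretch and by 1.32 (adjusted p = 1.05e-19) without. Lpin1, a phosphatase of triglyceride synthesis that also coactivates PPARα, fell by 0.94 (adjusted p = 6.97e-19) and 1.07 (adjusted p = 2.47e-20). Pdk4, the kinase that turns off pyruvate oxidation, fell by 0.80 (adjusted p = 1.73e-14) and 1.06 (adjusted p = 2.62e-17). Esrrg, a relative of Esrra, fell by 0.73 (adjusted p = 4.05e-12) and 0.86 (adjusted p = 9.90e-14).

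A few relatives of the members rose, again chosen after their values were seen. Cpt1c, the brain-type relative of Cpt1a, averaged 37.1 ± 0.870 CPM in knockdown and 26.0 ± 3.16 CPM in control libraries with stretch, and 39.7 ± 2.67 CPM in knockdown and 27.1 ± 2.44 CPM in control libraries without (n = 6 each, SD), log2 fold changes of 0.52 (adjusted p = 4.83e-08) and 0.55 (adjusted p = 1.22e-08). Acsl6, an acyl-CoA synthetase, rose by 0.61 (adjusted p = 9.71e-09) and 0.52 (adjusted p = 1.18e-07), and Pex11a, a peroxisome gene, by 0.50 in both states (adjusted p = 1.13e-09 and 6.69e-10).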
